A study of Saccharomyces cerevisiae with 12 samples.

Results

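RNA of a budding yeast strain (Saccharomyces cerevisiae) that lacked the DPY30 motif of SDC1 (Dpy30_KO) was compared with RNA of the wild type (WT) gene by gene. The comparison took 2 libraries of each strain, 4 of the 12 libraries of the series, and every identifier of the deposited gene table that was not marked as too deep to estimate. These were 7112 of 7126 identifiers. The 14 left out were listed at 0 in every library. Of the 7112, 7057 were nuclear, 30 were encoded in the mitochondrion by their identifiers, and 25 more lay on the mitochondrial chromosome (RPM1, the RNA of mitochondrial RNase P, and transfer RNA genes) and were counted with neither group.

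All strains were MGD353-13D. They were grown to mid log phase in YPD, a rich medium, and ribosomal RNA was removed from total RNA before directional libraries were made. WT carried none of the changes studied, and Dpy30_KO carried the deletion of the motif within SDC1. The other strains used here were a deletion of SDC1 (Sdc1_KO) and a point mutant of SDC1 (Sdc1_mut), also with 2 libraries each. The labels name neither the residue changed in Sdc1_mut nor the number of clones behind a strain. Whether the 2 libraries of a strain were grown as separate cultures is not stated, and the spread that the p-values rest on may be technical.

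Sdc1 is the yeast member of the DPY30 protein family and a subunit of the Set1 complex, the only histone H3 lysine 4 methyltransferase of this yeast. The DPY30 motif is a short helical stretch through which these proteins dimerise and hold on to Bre2, another subunit of the complex. Methylation at lysine 4 marks the start of transcribed genes, and its trimethyl form is the mark most tied to an intact complex. Jhd2 removes it.

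The WT libraries held 26041718 and 24067151 fragments and the Dpy30_KO libraries 14180681 and 11442273, so low genes were counted less precisely in the mutant. Levels are in CPM, counts scaled to the size of each library, and no spike-in is recorded in the labels, so a level is relative to the other RNA of its library. Fold changes are log2 values of Dpy30_KO over WT with their standard error. The test was edgeR's quasi-likelihood test, fitted over all 12 libraries, and genes with an adjusted p below 0.05 are the ones called. The labels state no mating type. Per length, the a-cell receptor gene STE2 stood at 121 ± 4.58 FPKM (fragments per kilobase of transcript, scaled to library depth by the authors; SD, n = 2) in WT, against 1.11 ± 0.161 FPKM for the alpha-cell receptor gene STE3.

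SDC1 (YDR469W, chromosome IV, 1399015 to 1399542, sacCer3) stood at 24.3 and 25.5 CPM in the WT libraries and at 14.5 and 14.3 CPM in those of Dpy30_KO. The groups did not overlap, and the fold change was -0.79 ± 0.12 (adjusted p = 0.0002). The deposited table holds 1 value for the whole gene, so how much of this fall is the deleted stretch itself cannot be told apart from a change in the transcript. The genes on either side were read as a check of the locus. UGO1, a mitochondrial outer membrane fusion protein, stood at 52.5 and 52.4 CPM in WT and at 30.6 and 30.3 CPM in Dpy30_KO. This fall (-0.78 ± 0.11, adjusted p = 0.0001) was close in size to that of SDC1, and its cause was not tested. TLG1, an endosomal membrane fusion protein, differed by -0.07 ± 0.09 and was not called (adjusted p = 0.54).

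Among the other subunits of the Set1 complex, BRE2 rose from 51.8 and 55.9 CPM to 86.5 and 82.3 CPM (0.65 ± 0.11, adjusted p = 0.0003). SET1, the catalytic subunit, rose from 58.8 and 56.7 CPM to 77.3 and 82.8 CPM (0.47 ± 0.08, adjusted p = 0.00042). SWD1, SWD2, SWD3, SPP1 and SHG1 were not called, with fold changes between -0.33 and 0.12. With SDC1 included, 1 gene of the complex was called lower. That count was 2 with RLE scaling or without unmatched identifiers, and 3 when only these strains were fitted. JHD2 (YJR119C), the demethylase gene, stood at 6.27 and 4.36 CPM in WT and at 14.9 and 14.3 CPM in Dpy30_KO. Its rise was 1.46 ± 0.21 (adjusted p = 0.00021).

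Mitochondrially encoded RNA was nearly absent from Dpy30_KO. The 30 mitochondrial identifiers held 35121 and 62765 fragments in the WT libraries and 17 and 8 in the Dpy30_KO libraries. All 20 of them that passed the filter on low counts were called lower. COX1, the core subunit of cytochrome c oxidase, had 5482 and 10586 fragments in WT and 7 and 2 in Dpy30_KO. OLI1, a membrane subunit of ATP synthase, had 1891 and 10399 against 0 and 2. The large ribosomal RNA of the mitochondrion (21S_rRNA) had 10735 and 12848 against 5 and 2. Each WT library lay far above each Dpy30_KO library for these genes, although for OLI1 the WT libraries themselves lay far apart. The other mutants were split. Sdc1_mut libraries held 9 and 2 mitochondrial fragments, and Sdc1_KO libraries held 53217 and 48206. In RNA from whole cultures, fewer cells with a mitochondrial genome and less mitochondrial RNA in each cell cannot be told apart. The loss of this RNA, the lower level of UGO1 and the deletion of the motif fell on the same libraries. For every nuclear gene below, their effects cannot be told apart.

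Nuclear genes changed broadly. Of 6340 nuclear genes tested, 3309 were called (52.2%), 1731 higher (27.3%) and 1578 lower (24.9%) in Dpy30_KO. These shares are the background for all counts of gene groups that follow, and they are not matched for expression level. Changes of at least 2-fold were called for 763 genes, of which 536 were higher (8.45%) and 227 lower (3.58%). The median over all nuclear genes was 0.02. The label of WT replicate 1 carries a library number outside the run of the other 11, and without this library 2539 nuclear genes were called.

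Lowly expressed genes held a large share of the rises. Protein-coding genes were ranked by their mean FPKM over all 12 libraries and split into 5 equal classes. In the lowest class, with a median of 11.2 FPKM, 39.1% of genes were higher and 8.68% lower. In the middle class, with a median of 48.5 FPKM, the shares were 21.2% and 32.9%. In the highest class, with a median of 385 FPKM, they were 33.2% and 27.8%. Of the 490 protein-coding genes that were at least 2-fold higher, 223 were in the lowest class. Ranking by the 8 libraries outside the comparison, an alternative added after the data were seen, gave 437 genes higher and 113 lower in the lowest class, against 450 and 100.

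**Figure D1:**
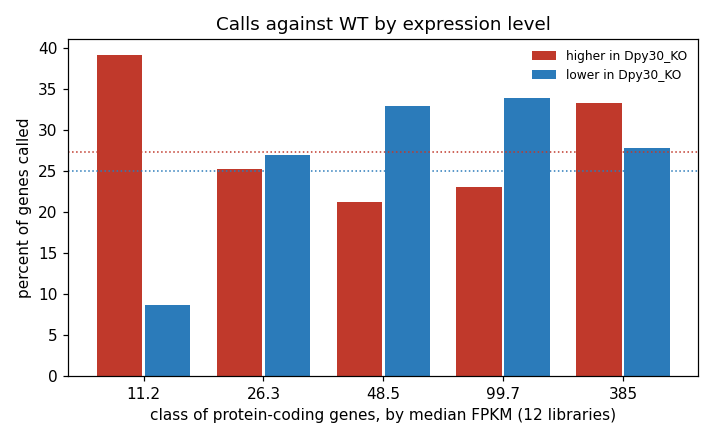
Share of protein-coding genes called higher (red bars) or lower (blue bars) in Dpy30_KO than in WT, in percent, for 5 equal classes of genes by level; each class is named on the x axis by its median FPKM. Dotted lines give the shares over all nuclear genes, 27.3% and 24.9%; the lowest class reaches 39.1% higher and 8.68% lower.

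Genes within 20 or 30 kb of a chromosome end followed a similar split, while the share of rises was not raised within 10 kb. Of 185 tested genes within 20 kb of an end, 69 were higher (37.3%) and 20 lower (10.8%), with a median of 0.34. Of those farther away, 27.9% were higher and 26.4% lower. Within 10 kb the share called higher was 24.6% of 69 genes, against 28.2% of genes farther away, and 8.70% were lower. Within 30 kb the share called higher was 36.8% of 323 genes. Many genes in these regions belong to families of near copies, whose counts the authors' software may have split. For the COS family of subtelomeric membrane proteins, 2 of 9 tested genes were higher and 1 was lower. That fall was lost without any 1 of the 4 libraries and with scaling by library totals, while DESeq2, only these groups fitted or unmatched identifiers left out gave 2.

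**Figure D2:**
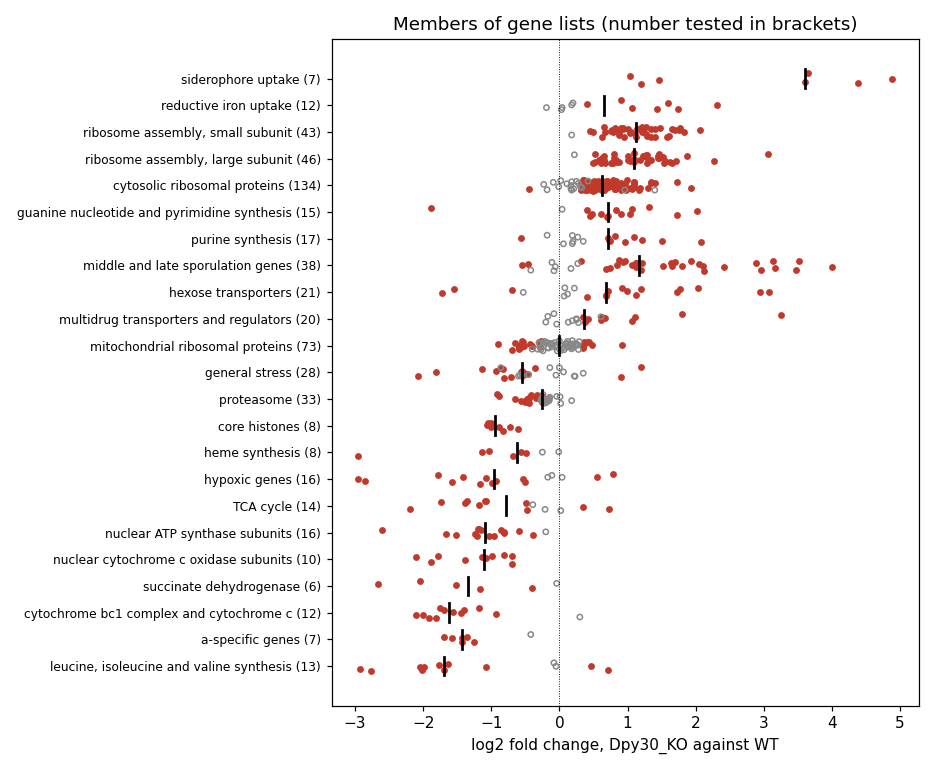
Fold change of Dpy30_KO against WT (log2, x axis) for every tested member of 23 gene lists (y axis, number tested in brackets); filled red points passed an adjusted p under 0.05, open grey points did not, and black bars are list medians. The 23 were selected from a larger set of lists, and several mixed lists are not drawn. Among those drawn, siderophore uptake genes lie farthest to the right (median 3.61) and genes of leucine, isoleucine and valine synthesis farthest to the left (median -1.69).

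Genes that bring iron into the cell were among the largest rises of the genome. Yeast takes up iron in 2 ways. Cells bind siderophores, iron chelators made by other microbes, at the wall and import them, or they reduce ferric iron at the surface and import it through an oxidase and permease. The transcription factors Aft1 and Aft2 switch on both routes when iron-sulfur clusters made in the mitochondrion run low. All 7 tested siderophore genes rose, each by at least 2-fold, with a median of 3.61.

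FIT2, a cell wall mannoprotein that retains siderophores, stood at 7.11 and 6.95 CPM in WT and at 217 and 197 CPM in Dpy30_KO (4.88 ± 0.18, adjusted p = 3.1e-09). FIT3, its convergent neighbour on chromosome XV and a protein of the same role, stood at 38.8 and 36.8 CPM against 789 and 802 CPM (4.39 ± 0.16, adjusted p = 2.8e-09). FIT1, the last of these wall proteins, stood at 3.08 and 2.93 CPM against 34.6 and 39 CPM (3.61 ± 0.16, adjusted p = 1.7e-08). The replicates of a strain lay close together and the strains far apart for all 3 genes. SIT1, the ferrioxamine transporter, stood at 8.63 and 8.84 CPM against 99.2 and 120 CPM (3.65 ± 0.13, adjusted p = 2.8e-09). The other siderophore transporters rose less. The values were 1.46 ± 0.19 for ARN2, 1.20 ± 0.15 for ARN1 and 1.03 ± 0.10 for ENB1, the enterobactin transporter.

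Promoters of 3 of these genes are shown because they hold the core of the site that Aft1 is known to bind, CACCC, in capitals on either strand. Each window is 300 bases of sacCer3 that end 100 bases before the annotated gene start, written 5′ to 3′ on the gene's strand (chrXV:1059131-1059430, plus strand for FIT2, chrXV:1061156-1061455, minus strand for FIT3 and chrV:27257-27556, plus strand for SIT1).
FIT2: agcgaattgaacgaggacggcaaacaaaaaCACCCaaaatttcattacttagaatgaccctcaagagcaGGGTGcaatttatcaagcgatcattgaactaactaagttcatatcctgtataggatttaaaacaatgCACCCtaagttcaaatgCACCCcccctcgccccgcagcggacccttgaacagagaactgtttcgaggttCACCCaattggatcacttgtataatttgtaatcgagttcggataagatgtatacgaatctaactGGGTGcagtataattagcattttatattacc
FIT3: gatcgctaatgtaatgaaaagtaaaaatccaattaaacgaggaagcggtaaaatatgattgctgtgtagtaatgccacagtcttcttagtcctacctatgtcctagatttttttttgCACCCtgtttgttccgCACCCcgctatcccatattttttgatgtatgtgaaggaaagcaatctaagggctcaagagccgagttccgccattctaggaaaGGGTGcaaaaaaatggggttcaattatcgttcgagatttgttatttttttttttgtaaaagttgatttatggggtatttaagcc
SIT1: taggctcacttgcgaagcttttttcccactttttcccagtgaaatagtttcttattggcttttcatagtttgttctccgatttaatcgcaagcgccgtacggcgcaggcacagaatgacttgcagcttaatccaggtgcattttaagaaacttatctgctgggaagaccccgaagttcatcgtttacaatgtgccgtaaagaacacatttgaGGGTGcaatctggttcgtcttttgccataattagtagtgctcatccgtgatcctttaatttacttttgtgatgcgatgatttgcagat
The core was found 6 times in the FIT2 window, 3 times in that of FIT3 and 1 time in that of SIT1. It was in 6 of the 7 siderophore windows and in 8 of 12 windows of the reductive uptake list, against 23.4% of all 5758 promoters. It was also in 11 of 12 windows of the iron recycling and sparing list, in which 5 genes were higher and 4 lower. Over all promoters 28.9% of genes with the core and 28.2% of genes without it were higher. A match of 5 letters is a description of the window and not a bound site.

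Of the 12 genes of the reductive uptake list, 7 rose and none fell. FET3, the multicopper ferroxidase, stood at 50.3 and 43.9 CPM in WT and at 153 and 162 CPM in Dpy30_KO (1.74 ± 0.11, adjusted p = 2e-07). FTR1, the iron permease that works with it, stood at 19.2 and 19.5 CPM against 56.3 and 61.4 CPM (1.60 ± 0.10, adjusted p = 1.6e-07). Among the reductases, FRE7 rose by 2.31 ± 0.16 and FRE1 by 1.44 ± 0.15. The regulator genes themselves did not pass the test, with -0.19 ± 0.08 for AFT1 (adjusted p = 0.078) and 0.04 ± 0.10 for AFT2 (adjusted p = 0.74).

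The list of iron recycling and sparing was mixed, with 5 of 12 genes higher and 4 lower. TIS11 (also called CTH2), which speeds the decay of mRNAs of iron-using proteins, stood at 10.4 and 11.6 CPM in WT and at 39.6 and 42.5 CPM in Dpy30_KO (1.90 ± 0.12, adjusted p = 2.6e-07). Its relative CTH1 went the other way, from 82.1 and 79.4 CPM to 36.3 and 33.5 CPM (-1.21 ± 0.12, adjusted p = 6.8e-06). HMX1, the heme oxygenase, rose by 1.63 ± 0.16, and the copper chaperone gene ATX1 by 1.10 ± 0.19. MRS4 and MRS3, which carry iron into the mitochondrion, fell by 0.51 ± 0.13 and 0.46 ± 0.11 on the log2 scale, MRS4 no longer so without Dpy30_KO replicate 1. In iron-sulfur cluster assembly, 3 of 14 genes were higher and 7 lower. NFS1, the cysteine desulfurase, rose by 0.75, and NAR1, of the cytosolic pathway, by 0.80. SSQ1, a mitochondrial chaperone of cluster transfer, fell by 0.70.

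**Figure D3:**
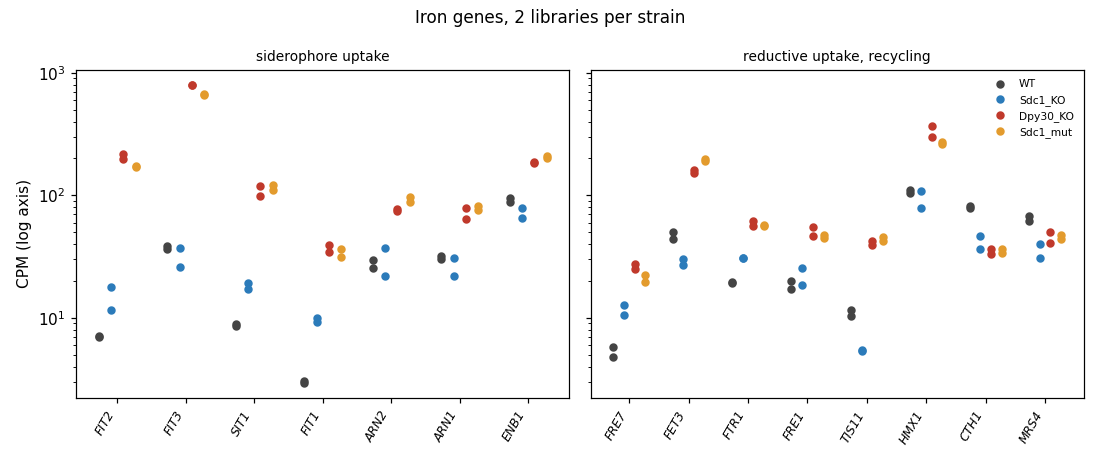
Level of iron genes in CPM (y axis, log scale) in each of 2 libraries of WT, Sdc1_KO, Dpy30_KO and Sdc1_mut; each point is a library. The Dpy30_KO points of FIT2 (217 and 197 CPM) and FIT3 (789 and 802 CPM) lie above those of WT (7.11 and 6.95 CPM, 38.8 and 36.8 CPM).

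Nuclear genes of the respiratory chain fell as a group. The chain passes electrons from succinate dehydrogenase and NADH dehydrogenases through the cytochrome bc1 complex and cytochrome c to cytochrome c oxidase, and its proton gradient drives ATP synthase. Several of these complexes join nuclear and mitochondrially encoded subunits. None of the 44 tested genes of the 4 lists (succinate dehydrogenase, bc1 and cytochrome c, cytochrome c oxidase, ATP synthase) was higher and 41 were lower. With scaling by library totals, or with only these strains fitted, 1 gene of the bc1 list was higher. The list of NADH and lactate dehydrogenases, not among these 4, moved less, with 4 of 7 genes lower, none higher and a median of -0.46.

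SDH1, the flavoprotein of succinate dehydrogenase, stood at 1437 and 1192 CPM in WT and at 209 and 204 CPM in Dpy30_KO (-2.67 ± 0.19, adjusted p = 5.6e-07). SDH2, its iron-sulfur subunit, stood at 273 and 276 CPM against 68.2 and 64.2 CPM (-2.05 ± 0.10, adjusted p = 4.4e-08). Of the 6 genes of this list 5 fell, and SDH6, an assembly factor, was not called (-0.04). In the bc1 list 11 of 12 genes fell. RIP1, the Rieske iron-sulfur protein, stood at 291 and 282 CPM against 66 and 67.2 CPM (-2.11 ± 0.10, adjusted p = 3.4e-08). CYC3, which attaches heme to cytochrome c, was the gene of this list not called (0.30, adjusted p = 0.071).

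All 10 nuclear subunits of cytochrome c oxidase on the list fell, from -2.10 ± 0.12 for COX4 to -0.70 ± 0.12 for COX12. COX4 stood at 210 and 200 CPM in WT and at 52.6 and 42.9 CPM in Dpy30_KO. Of 16 genes of ATP synthase, 15 fell, with a median of -1.10. INH1, the inhibitor protein of the enzyme, fell most, from 101 and 88.6 CPM to 15.9 and 14.9 CPM (-2.61 ± 0.13, adjusted p = 4.5e-08). In the TCA cycle, which feeds the chain, 9 of 14 genes fell and 2 rose. No rise was called without WT replicate 2 or Dpy30_KO replicate 2, and 1 without WT replicate 1. MDH1, mitochondrial malate dehydrogenase, stood at 2386 and 2328 CPM against 539 and 487 CPM (-2.20 ± 0.20, adjusted p = 3.9e-06). ACO1, aconitase, fell by 1.74 ± 0.19 on the log2 scale. LSC2, a subunit of succinyl-CoA ligase, rose by 0.35 ± 0.10, a call lost without WT replicate 2 or Dpy30_KO replicate 2.

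The fall did not extend to all of the mitochondrion's nuclear genes. Of 73 mitochondrial ribosomal protein genes, 9 were higher and 16 lower, shares below those of all nuclear genes, and none was called at 2-fold or more. Without WT replicate 1 or Dpy30_KO replicate 1, 3 or 5 were higher, and without the other library of either strain 10 were lower. Of 12 genes that maintain or transcribe mitochondrial DNA, 2 were higher and 1 was lower, the latter not without WT replicate 1 or Dpy30_KO replicate 1. MIP1, the mitochondrial DNA polymerase, was not called (0.08 ± 0.08, adjusted p = 0.47), and NUC1, the mitochondrial nuclease, rose from 11.1 and 12.5 CPM to 30.9 and 30.7 CPM (1.38 ± 0.12, adjusted p = 2.5e-06). The retrograde response is the set of genes known to be switched on through Rtg1 and Rtg3 in yeast that lacks mitochondrial DNA. The list used here also holds regulators of the response, among them RTG1, RTG2, RTG3 and MKS1, so it is not a list of targets alone. Here 4 of its 10 genes were lower and 1 was higher, the latter call lost with scaling by library totals, without WT replicate 1 and without Dpy30_KO replicate 2. CIT2, the peroxisomal citrate synthase and usual reporter of this response, stood at 111 and 151 CPM in WT and at 68.2 and 107 CPM in Dpy30_KO. The CIT2 fold change was -0.58 ± 0.26 and did not pass the test (adjusted p = 0.082). PYC1, pyruvate carboxylase, fell by 1.29 ± 0.11 and RTG3 by 0.75 ± 0.09 on the log2 scale.

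Heme synthesis and hypoxic genes also fell. Of 8 heme synthesis genes 6 were lower and none higher. HEM13, coproporphyrinogen oxidase, an oxygen-using step of the pathway, stood at 380 and 431 CPM in WT and at 53.7 and 51.4 CPM in Dpy30_KO (-2.95 ± 0.21, adjusted p = 4.3e-07). HEM15, ferrochelatase, which inserts iron into heme, fell by 1.13 ± 0.09. HEM13 is itself a hypoxic gene, repressed by Rox1 when oxygen and heme are plentiful, and 11 of 16 hypoxic genes fell while 2 rose. OLE1, the fatty acid desaturase, stood at 925 and 912 CPM against 270 and 263 CPM (-1.78 ± 0.29, adjusted p = 0.00032). IZH4, a membrane protein of the zinc and sterol response, stood at 68.3 and 68 CPM against 11 and 7.69 CPM (-2.85 ± 0.30, adjusted p = 1.1e-05). ANB1, the hypoxic form of translation factor eIF5A, fell by 1.57 ± 0.21. TIR1, a cell wall mannoprotein of the cold and anaerobic response, fell from 373 and 382 CPM to 30.8 and 33.7 CPM (-3.55 ± 0.44, adjusted p = 3.7e-05). Its relatives DAN4 and TIR4 rose (1.25 ± 0.26 and 0.78 ± 0.14). Over its list of anaerobic DAN/TIR cell wall genes, 3 of 8 tested genes were higher and TIR1 alone was lower. In the seripauperin PAU family, which shares PAU23 and PAU24 with that list, 5 of 11 tested genes were higher and none lower. Fewer PAU genes were higher without WT replicate 1, WT replicate 2 or Dpy30_KO replicate 2.

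The regulators of these genes did not move as 1 group. ROX1 fell by 1.17 ± 0.24 (adjusted p = 0.0014), and HAP2 and HAP3, subunits of the complex that binds CCAAT boxes in respiratory promoters, fell by 0.85 and 0.62, HAP3 not without Dpy30_KO replicate 2. HAP4, its activating subunit, was not called (0.14 ± 0.20, adjusted p = 0.57), nor was HAP1, the heme-responsive activator (0.24 ± 0.10, adjusted p = 0.065). A CCAAT box on either strand was in 15 of 16 ATP synthase windows, 8 of 10 cytochrome c oxidase windows, 5 of 6 succinate dehydrogenase windows and 8 of 12 windows of the bc1 list, against 44.2% of all promoters. Over all promoters 27.9% of genes with the box and 24.6% of genes without it were lower.

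Synthesis of leucine, isoleucine and valine fell, with 9 of 13 genes lower and 2 higher, and each of the 9 fell at least 2-fold. The pathway runs largely in the mitochondrion. Leu3, a zinc cluster factor that responds to the intermediate alpha-isopropylmalate, is known to control part of it. LEU1, isopropylmalate isomerase, an iron-sulfur enzyme, stood at 1157 and 1184 CPM in WT and at 155 and 191 CPM in Dpy30_KO (-2.76 ± 0.15, adjusted p = 8.7e-08). BAT1, the mitochondrial branched-chain aminotransferase, stood at 767 and 873 CPM against 200 and 214 CPM (-1.99 ± 0.12, adjusted p = 1.5e-07). BAT2, the cytosolic form, was not called (-0.05 ± 0.16, adjusted p = 0.83). ILV3, the dihydroxyacid dehydratase and also an iron-sulfur enzyme, fell by 2.02 ± 0.14, and OAC1, the mitochondrial carrier that exports isopropylmalate, by 2.05 ± 0.14. LEU4 and LEU9, the isopropylmalate synthases, fell by 1.77 ± 0.15 and 1.69 ± 0.12. LEU2 fell by 2.92 ± 0.14, though it can be an auxotrophic marker and the labels do not give its allele. ILV1 and ILV6 rose (0.72 ± 0.15 and 0.46 ± 0.13), ILV6 not without WT replicate 1 or Dpy30_KO replicate 2, and LEU3 itself was not called (-0.08 ± 0.12, adjusted p = 0.61).

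The windows of LEU1 (chrVII:478753-479052, minus strand) and BAT1 (chrVIII:517132-517431, plus strand) are shown because each holds the palindromic Leu3 motif, CCGG, any 2 bases, CCGG, in capitals.
LEU1: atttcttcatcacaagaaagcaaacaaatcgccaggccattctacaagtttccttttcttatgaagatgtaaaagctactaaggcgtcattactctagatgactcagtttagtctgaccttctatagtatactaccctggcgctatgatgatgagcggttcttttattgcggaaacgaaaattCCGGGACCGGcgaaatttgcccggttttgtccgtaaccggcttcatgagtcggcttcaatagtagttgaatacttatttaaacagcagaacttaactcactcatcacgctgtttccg
BAT1: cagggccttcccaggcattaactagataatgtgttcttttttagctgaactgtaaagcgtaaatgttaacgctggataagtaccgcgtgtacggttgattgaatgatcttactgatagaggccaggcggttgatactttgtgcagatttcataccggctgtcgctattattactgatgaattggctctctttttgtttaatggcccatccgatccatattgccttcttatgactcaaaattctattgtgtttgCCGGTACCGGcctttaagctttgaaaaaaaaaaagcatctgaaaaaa
The motif was rare. It was in 10 of 5758 promoters (0.174%), and 8 of these 10 genes were lower and none higher, with a median of -1.04. Of the 13 genes of the pathway list, LEU1, LEU2, BAT1 and ILV5 had it in the window, so the list and the motif share genes.

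Ribosome synthesis rose almost throughout. Ribosome assembly factors work in the nucleolus on the precursor RNA that RNA polymerase I makes, and their promoters in this yeast often hold 2 motifs, RRPE and PAC. Of 43 genes of small subunit assembly 42 were higher and none lower, with a median of 1.12. Of 46 genes of large subunit assembly 45 were higher and none lower, with a median of 1.10. The genes not called were RRP7 (0.18 ± 0.12, adjusted p = 0.24) and RRP8 (0.22 ± 0.20, adjusted p = 0.37). Summed over a list, small subunit genes made up 3630 and 3944 CPM in WT and 7607 and 7435 CPM in Dpy30_KO. Large subunit genes made up 4741 and 5471 CPM against 9726 and 9162 CPM. For both lists the groups stood apart.

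RSA4, which drives a late step of large subunit maturation, stood at 2.51 and 2.3 CPM in WT and at 14.9 and 25.6 CPM in Dpy30_KO (3.06 ± 0.29, adjusted p = 5e-06). NSR1, yeast nucleolin, stood at 28.8 and 34.9 CPM against 126 and 140 CPM (2.06 ± 0.13, adjusted p = 2.9e-07). DBP7, an RNA helicase of the large subunit, rose by 2.27 ± 0.13. Of 134 cytosolic ribosomal protein genes, 115 were higher and 1, RPL7B, was lower (-0.45 ± 0.14, adjusted p = 0.016). Their median was 0.63. Without WT replicate 1, 76 were higher, and RPL7B was not called without WT replicate 2 or Dpy30_KO replicate 1. They summed to 64550 and 75494 CPM in WT and to 104277 and 106355 CPM in Dpy30_KO. Among genes of RNA polymerase I and of ribosome gene regulation, 16 of 24 were higher and 3 lower (1 without WT replicate 1 or Dpy30_KO replicate 2). RRN11, of the core factor for polymerase I, rose by 2.09 ± 0.25. The repressor genes of this list did not move together. DOT6 and STB3 fell by 0.52 and 0.42, DOT6 not without WT replicate 1 or Dpy30_KO replicate 2, while TOD6 had a fold change of 1.57.

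The windows of RRP5 (chrXIII:731224-731523, minus strand) and RRS1 (chrXV:867940-868239, plus strand), an assembly factor of both subunits and one of the large subunit, are shown because the motifs stand close together in them. Capitals mark RRPE (AAAAATTTT) and PAC (GATGAG) on either strand, and overlapping matches run together. These 2 genes were chosen after their windows were seen.
RRP5: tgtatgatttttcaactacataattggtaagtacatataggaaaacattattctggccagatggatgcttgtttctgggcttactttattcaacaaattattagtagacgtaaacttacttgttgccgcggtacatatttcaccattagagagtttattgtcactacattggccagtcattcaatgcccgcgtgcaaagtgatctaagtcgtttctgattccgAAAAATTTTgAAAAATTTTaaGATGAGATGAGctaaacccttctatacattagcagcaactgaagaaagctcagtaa
RRS1: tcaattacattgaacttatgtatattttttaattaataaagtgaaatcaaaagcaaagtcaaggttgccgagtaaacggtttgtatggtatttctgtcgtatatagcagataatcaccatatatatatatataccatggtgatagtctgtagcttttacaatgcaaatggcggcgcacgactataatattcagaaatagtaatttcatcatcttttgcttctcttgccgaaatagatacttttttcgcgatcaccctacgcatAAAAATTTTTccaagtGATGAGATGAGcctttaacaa
RRP5 rose by 1.11 ± 0.15 and RRS1 by 1.54 ± 0.19. RRPE was in 27 of 43 small subunit windows and 30 of 46 large subunit windows, and PAC in 30 and 31, against 432 and 1036 of all 5758 promoters. With RRPE in the window 55.1% of genes were higher and 13.2% lower, and without it 26.2% and 27.1%. With the 4 ribosome lists set aside, 47.4% of genes with RRPE were higher and 15.9% lower, against 24.1% and 27.9% without it. Only listed genes were set aside, so genes of ribosome synthesis that are not on these lists may remain. For PAC the shares outside these lists were 35.8% and 20.7%, against 23.5% and 28.5%.

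Nucleotide synthesis rose too. In the list of guanine nucleotide and pyrimidine synthesis, 13 of 15 genes were higher and 1 lower. URA2, the first enzyme of pyrimidine synthesis, stood at 341 and 315 CPM in WT and at 1235 and 1432 CPM in Dpy30_KO (2.02 ± 0.11, adjusted p = 8.9e-08). URA1, dihydroorotate dehydrogenase, stood at 241 and 288 CPM against 877 and 882 CPM (1.73 ± 0.13, adjusted p = 6.2e-07). The exception was IMD2, IMP dehydrogenase, from 677 and 711 CPM to 160 and 214 CPM (-1.89 ± 0.23, adjusted p = 2.6e-05). In purine synthesis 9 of 17 genes were higher and 1 was lower, the latter not without Dpy30_KO replicate 2. ADE17, a late step of the pathway, rose by 2.08 ± 0.28, and PRS3, which makes its ribose precursor, by 1.51 ± 0.12.

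Sugar uptake and carbon genes were mixed. Of 21 hexose transporter and sensor genes 13 were higher and 3 lower. HXT3, a low affinity carrier of cells on glucose, stood at 1222 and 1225 CPM in WT and at 4177 and 4176 CPM in Dpy30_KO (1.77 ± 0.13, adjusted p = 5.6e-07). HXT6 and HXT7, high affinity carriers that are near copies and so uncertain singly, fell by 1.73 ± 0.15 and 1.54 ± 0.18. HXT10, rarely used in growth on glucose, rose from 2.58 and 1.93 CPM to 17.9 and 20.7 CPM (3.08 ± 0.21, adjusted p = 3.3e-07). PCK1, the gluconeogenic enzyme that glucose normally shuts off, stood at 21.1 and 18.5 CPM against 211 and 175 CPM (3.28 ± 0.17, adjusted p = 4.5e-08). ADH2, also glucose repressed, rose by 1.97 ± 0.21, whereas ICL1 and CAT8 of the same list fell by 0.75 each. That list had 7 of 16 genes higher (4 without WT replicate 2) and 5 lower (3 without WT replicate 1 and 2 without Dpy30_KO replicate 1). Of the markers of growth phase, HXT1 rose by 0.71 ± 0.14. PDC1 rose by 0.49 ± 0.19 (adjusted p = 0.041), a call lost without any 1 of the 4 libraries and in limma (adjusted p = 0.12), and HSP12 (-0.86 ± 0.46, adjusted p = 0.13) and SPI1 (0.23 ± 0.16, adjusted p = 0.26) were not called.

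Stress and protein quality genes leaned lower. Of 28 general stress genes 14 were lower and 2 higher. CTT1, cytosolic catalase and a heme enzyme, stood at 1109 and 1052 CPM in WT and at 272 and 243 CPM in Dpy30_KO (-2.07 ± 0.37, adjusted p = 0.00054). Of 21 cytosolic chaperone genes 9 were lower (5 without Dpy30_KO replicate 2) and 2 higher (1 without WT replicate 1 or Dpy30_KO replicate 1), with SIS1 falling by 1.48 ± 0.22. Of 33 proteasome genes 16 were lower and none higher, although none was called at 2-fold or more. Leaving out WT replicate 2, Dpy30_KO replicate 1 or Dpy30_KO replicate 2 left 9, 9 and 10 lower. RPN11, the deubiquitinase of the proteasome lid, fell most, by 0.92 ± 0.12. Of 17 trehalose and glycogen genes 7 were lower and none higher, and PGM2, phosphoglucomutase, fell by 1.50 ± 0.21.

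The RNA of a cells remained in Dpy30_KO, at lower levels. Of 7 a-specific genes 6 fell and MFA1, a mating pheromone gene, was not called (-0.42 ± 0.36, adjusted p = 0.35). They summed to 506 and 500 CPM in WT and to 178 and 192 CPM in Dpy30_KO. STE2, the receptor for alpha factor, stood at 136 and 146 CPM in WT and at 48 and 56.8 CPM in Dpy30_KO (-1.43 ± 0.15, adjusted p = 1.2e-05). BAR1, the protease that degrades alpha factor, stood at 111 and 109 CPM against 35.9 and 38.3 CPM (-1.57 ± 0.22, adjusted p = 8.2e-05). STE6, the a-factor exporter, fell by 1.35 ± 0.09.

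The alpha-specific genes split. MF(ALPHA)1, the main alpha factor gene, stood at 0.38 and 0.251 CPM in WT and at 3.29 and 4.95 CPM in Dpy30_KO (3.65 ± 0.44, adjusted p = 3.2e-05). STE3, the receptor for a factor, stood at 1.41 and 1.84 CPM against 8.57 and 10.3 CPM (2.53 ± 0.32, adjusted p = 3.9e-05). MF(ALPHA)2 (0.48 ± 0.21, adjusted p = 0.071) and SAG1 (0.22 ± 0.14, adjusted p = 0.21) were not called. Per length, STE3 reached 6.12 ± 0.782 FPKM in Dpy30_KO, still below STE2 at 42.8 ± 4.71 FPKM (SD, n = 2).

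Genes of the pheromone pathway, shared by both haploid types, fell in 14 of 30 cases and rose in 1 (2 when only these strains were fitted). AGA1, the anchor of a-agglutinin, stood at 192 and 177 CPM in WT and at 30.4 and 33.7 CPM in Dpy30_KO (-2.52 ± 0.29, adjusted p = 2e-05). GPA1, the G protein alpha subunit, fell by 1.31 ± 0.21, SST2, which switches that protein off, by 1.36 ± 0.10, and STE4, the beta subunit, by 0.86 ± 0.18. PRM6, a potassium channel, was the member that rose (2.22 ± 0.55, adjusted p = 0.0045), from under 1 CPM, and it was not called without Dpy30_KO replicate 1.

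The window of STE2 (chrVI:82180-82479, plus strand) is shown for its pheromone response elements (TGAAACA, either strand, in capitals), which Ste12 is known to bind.
STE2: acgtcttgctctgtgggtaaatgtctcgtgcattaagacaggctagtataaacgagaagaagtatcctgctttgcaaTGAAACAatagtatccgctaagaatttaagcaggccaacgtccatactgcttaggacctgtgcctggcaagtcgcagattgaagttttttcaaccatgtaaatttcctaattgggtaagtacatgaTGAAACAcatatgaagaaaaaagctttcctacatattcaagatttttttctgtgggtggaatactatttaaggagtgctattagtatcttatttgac
It held 2 of them. The element was in 6 of 7 a-specific windows and 16 of 30 pheromone pathway windows, against 7.36% of all promoters. Over all promoters 30.2% of genes with it and 25.7% of genes without it were lower.

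**Figure D4:**
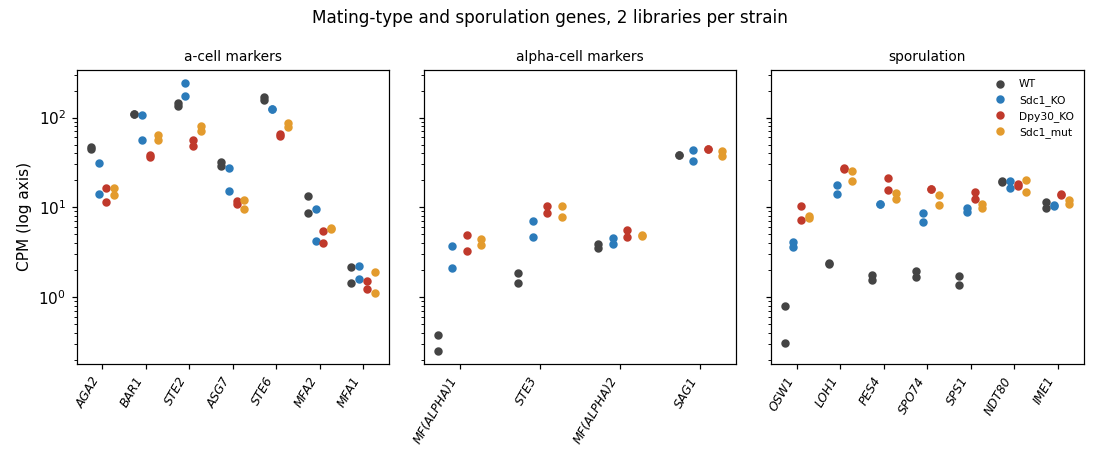
Level in CPM (y axis, log scale) of a-cell markers, alpha-cell markers and sporulation genes in each of 2 libraries of WT, Sdc1_KO, Dpy30_KO and Sdc1_mut; each point is a library. STE2 is lower in Dpy30_KO (48 and 56.8 CPM) than in WT (136 and 146 CPM), and OSW1 is higher (10.3 and 7.16 CPM against 0.304 and 0.796 CPM).

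Genes of middle and late sporulation rose although the cells grew in rich medium. These genes build the spore wall and are normally shut off in haploid cells, where Sum1 represses many of them. Of 38 tested, 30 were higher and 2 lower, with a median of 1.17, and 23 were at least 2-fold higher. None was lower without WT replicate 2 or Dpy30_KO replicate 2, and 1 without WT replicate 1. OSW1, of the outer spore wall, stood at 0.304 and 0.796 CPM in WT and at 10.3 and 7.16 CPM in Dpy30_KO (4.0 ± 0.33, adjusted p = 1.8e-06). LOH1 stood at 2.39 and 2.3 CPM against 26.7 and 27.4 CPM (3.52 ± 0.18, adjusted p = 5.2e-08). PES4, an RNA-binding protein, stood at 1.75 and 1.55 CPM against 21.1 and 15.7 CPM (3.48 ± 0.21, adjusted p = 1.5e-07). SPS1, a kinase of spore formation, and SPO74, of the spindle pole body, rose by 3.13 ± 0.22 and 3.16 ± 0.25. In all of these genes the groups stood apart, at levels that remained low.

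Their known activator did not move with them. NDT80 stood at 18.9 and 19.5 CPM in WT and at 18.4 and 17.1 CPM in Dpy30_KO (-0.11 ± 0.15, adjusted p = 0.55). IME1, the master regulator of entry into meiosis, was not called (0.39 ± 0.17, adjusted p = 0.07), nor were the late markers SPS4 (-0.06 ± 0.37, adjusted p = 0.9) and SPS100 (-0.42 ± 0.30, adjusted p = 0.25). Of 27 early meiosis genes 10 were higher and 4 lower, though without any 1 of the 4 libraries 4 to 6 were higher, as were 6 with scaling by library totals. Without WT replicate 1 or Dpy30_KO replicate 2, 1 was lower. REC8, the meiotic cohesin, rose by 1.93 ± 0.28. The count at IME4, an mRNA methyltransferase gene, fell from 151 and 123 CPM to 55.3 and 56.5 CPM (-1.30 ± 0.11, adjusted p = 1.6e-06). The strand setting of the counting is not given, so RNA of the opposite strand at IME4 may be included. The core of the middle sporulation element, CACAAAA on either strand, was in 20 of 38 middle and late windows, against 7.61% of all promoters. Over all promoters 30.8% of genes with the core and 28.1% of genes without it were higher.

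All 8 core histone genes fell, 4 of them at least 2-fold, from -1.06 ± 0.20 for HTB2 to -0.61 ± 0.12 for HHT1. They summed to 4689 and 5088 CPM in WT and to 2622 and 2583 CPM in Dpy30_KO. Of 30 G1 and S phase genes 4 were higher and 3 lower, and with 1 library left out as few as 2 higher and 1 lower. In the Set3 complex, a deacetylase that reads lysine 4 dimethylation, 2 of 7 genes were lower (1 without WT replicate 1) and none higher. Among silencing factors and the Paf1 complex 3 of 16 were higher and 4 lower, with SIR4 at 0.52 and LEO1 at -0.67.

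Other large rises fell in small groups. HUG1, an inhibitor of ribonucleotide reductase and a target of the DNA damage checkpoint, stood at 4.3 and 3.14 CPM in WT and at 46 and 54.4 CPM in Dpy30_KO (3.74 ± 0.32, adjusted p = 2.2e-06). Of the 15 checkpoint targets 10 were higher (6 without Dpy30_KO replicate 2) and 2 lower (1 without WT replicate 1 or either Dpy30_KO library), RNR3 among the former (0.67 ± 0.12). AQR1, a plasma membrane exporter, stood at 9.01 and 10.6 CPM against 84.2 and 104 CPM (3.26 ± 0.20, adjusted p = 1.5e-07). PDR5, the main drug efflux pump, stood at 4545 and 3947 CPM against 8967 and 9384 CPM (1.11 ± 0.25, adjusted p = 0.0027). Of 20 genes of multidrug transport 10 rose and none fell.

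FDH1 and FDH2, formate dehydrogenases, rose by 4.85 ± 0.33 and 5.30 ± 0.47, but they are near copies and FDH2 is annotated in sacCer3 as a pseudogene, so their reads could be split between them. In NAD synthesis BNA2 and BNA4, early steps from tryptophan, rose by 2.46 ± 0.20 and 1.98 ± 0.10, and TNA1, the nicotinic acid carrier, by 2.03 ± 0.20, while 3 of the 13 genes fell. BIO4, dethiobiotin synthetase, and BIO5, a biotin precursor carrier, rose by 2.59 ± 0.17 and 2.11 ± 0.22, whereas BIO2, biotin synthase and an iron-sulfur enzyme, fell from 65.8 and 65.9 CPM to 25.6 and 27.3 CPM (-1.32 ± 0.15, adjusted p = 1.6e-05). RCK1, a protein kinase of the oxidative stress response, rose by 3.33 ± 0.22.

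Against the point mutant, few differences of Dpy30_KO passed the test. Of 6340 nuclear genes, 1 was called (0.0158%), and 437 had an unadjusted p under 0.05. DESeq2 called 3 and limma 2, leaving out Dpy30_KO replicate 1 gave 2, and fitting only these 2 strains gave 17, of which 12 were higher and 5 lower. The gene called was SDC1, at 14.5 and 14.3 CPM in Dpy30_KO against 38.5 and 39.2 CPM in Sdc1_mut (-1.43 ± 0.12, adjusted p = 0.00047). The median size of the difference over all nuclear genes was 0.11 and its 95th percentile 0.45, with a median standard error of 0.13. Among the 763 genes that had changed at least 2-fold against WT, the median size was 0.18, and 16 differed by 2-fold or more without passing the test. Over all nuclear genes 47 differed by 2-fold or more, called or not. With 2 libraries a strain small differences would not be detectable, and a test that was not passed does not show that the strains act alike. For the genes above, the differences were 0.27 ± 0.15 for FIT2, 0.09 ± 0.18 for SDH1, -0.20 ± 0.14 for LEU1, -0.35 ± 0.13 for NSR1, -0.54 ± 0.15 for STE2 and 0.17 ± 0.26 for OSW1.

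Against the deletion of the whole gene, Dpy30_KO differed at 1582 nuclear genes (25.0%), 713 higher (11.2%) and 869 lower (13.7%). Scaling by library totals alone gave 503 higher and 1060 lower. The 2 Sdc1_KO libraries differed more than those of other strains, with a standard deviation of the log2 difference over genes of 0.429, against 0.271 for Dpy30_KO. The count of calls was 1916 without Sdc1_KO replicate 1 and 2215 without Sdc1_KO replicate 2. It was 788 without Dpy30_KO replicate 1 and 958 without Dpy30_KO replicate 2, and 482 when only these 2 strains were fitted. Mitochondrial RNA was present in Sdc1_KO and nearly absent from Dpy30_KO, and its part in these differences cannot be told apart from that of the allele.

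All 7 siderophore genes were higher in Dpy30_KO than in Sdc1_KO. FIT3 stood at 36.9 and 25.9 CPM in the Sdc1_KO libraries (4.66 ± 0.16, adjusted p = 2.6e-09) and FIT2 at 17.8 and 11.6 CPM (3.82 ± 0.17, adjusted p = 2.3e-08). URA1 stood at 77.9 and 79.3 CPM in Sdc1_KO and was higher in Dpy30_KO (3.48 ± 0.14, adjusted p = 8.6e-09). HEM13 stood at 504 and 829 CPM in Sdc1_KO against 53.7 and 51.4 CPM in Dpy30_KO (-3.66 ± 0.21, adjusted p = 1.6e-07). TIR1 was also lower than in Sdc1_KO (-3.15 ± 0.44), as were IZH4 (-2.74 ± 0.30) and LEU2 (-2.29 ± 0.14). DAN1, a wall protein of the TIR1 family, was lower than in Sdc1_KO (-2.89 ± 0.48, adjusted p = 0.00087), though against WT it was not called (-0.30 ± 0.52). SDC1 had 0 fragments in Sdc1_KO.

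Respiratory genes were lower than in the gene deletion as well. Dpy30_KO was below Sdc1_KO for 14 of 16 ATP synthase genes, 10 of 12 genes of the bc1 list, 7 of 10 of cytochrome c oxidase and 4 of 6 of succinate dehydrogenase, and above it for 1 gene each of the first and the second list. Genes of leucine, isoleucine and valine synthesis were lower in 11 of 13 cases and higher in 1. None of the 8 core histone genes or the 4 alpha-specific genes was called, and 8 of 43 small subunit assembly genes were higher in Dpy30_KO and 3 lower. Of 46 large subunit assembly genes 10 were higher and none lower. NSR1 differed by -0.02 ± 0.13 and JHD2 by -0.09 ± 0.20. Middle and late sporulation genes were higher in 13 of 38 cases and lower in 1. Purine synthesis went the other way, with 7 of 17 genes lower than in Sdc1_KO and 1 higher, and ADE17 at -1.75 ± 0.26 (adjusted p = 0.00043). Of the 536 genes at least 2-fold higher than WT, 194 were also called higher than Sdc1_KO, 18 were lower and 324 were not called. Of the 227 genes at least 2-fold lower, 130 were also lower than Sdc1_KO and 97 were not called. Both of these counts use the same Dpy30_KO libraries on both sides, so they are not independent.

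**Figure D5:**
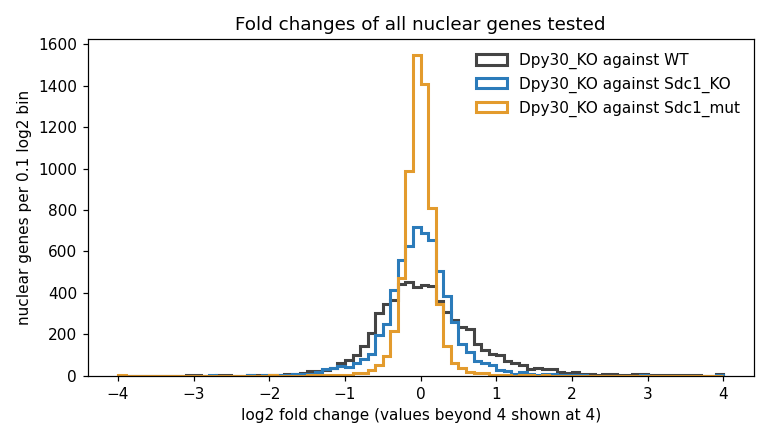
Distribution of log2 fold changes (x axis) over all 6340 nuclear genes tested, in bins of 0.1, for Dpy30_KO against WT, against Sdc1_KO and against Sdc1_mut; the y axis counts genes and values beyond 4 are drawn at 4. The distribution against Sdc1_mut is narrow (median size 0.11) and that against WT is wide, with 763 genes called at 2-fold or more.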

How the data were processed

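Total RNA libraries of 12 yeast samples in 6 groups of 2 (WT, Dpy30_KO, Sdc1_KO, Sdc1_mut, a JHD2 deletion and Sdc1_mut with the JHD2 deletion) were sequenced. Per the submitters' processing notes, TopHat and Cufflinks were used with build sacCer3. The annotation, strand setting and treatment of reads with several matches are not given in the sources used here, so genes with a near copy (367, at 95% identity over 50% of the length) or an overlap (221) are uncertain. The deposited table gives each gene's estimated count of fragments, 97.8% of them whole, and the authors' FPKM. Of 7112 identifiers 6046 matched the RefSeq sacCer3 annotation by locus tag, 106 by symbol and 960 not at all. The table also holds 2 columns of per-sample values that were not used.

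Expected counts were rounded to whole numbers, filtered with filterByExpr and scaled by TMM, and 6361 genes were tested over all 12 libraries with edgeR 4.0.16 in R 4.3.3, adjusted by Benjamini-Hochberg over all of them. The common biological coefficient of variation was 10.2%. Standard errors were derived from the fold change and the F statistic. Intervals were not built from counts, since no molecular identifiers are recorded. The script was tested on simulated data. Alternatives were DESeq2 1.42.0, limma 3.58.1 on log2 CPM with a prior count of 2, RLE or library total scaling, no filter, a replicate term, only the groups compared, each library left out, and mitochondrial or unmatched identifiers left out. Named genes were SDC1, its neighbours, JHD2 and the Set1 complex, the 15 largest changes each way (at least 5 CPM, groups apart), the 5 largest each way in the other comparisons, all tested members of lists of up to 12 genes, and the 5 highest and 5 lowest of longer lists. RRP5, RRS1, LEU4 and LEU9, named after their values were seen, and the cell type and growth markers IME1, HXT1, STE4 and SPS4 fall outside that rule. The marker sets also held DIT1 for sporulating cells and STE18, STE5 and RME1 for haploid cells, which are not reported singly. The members and lists were chosen with earlier results of these data known. Some members that this rule selects are not reported singly here.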

Additional observations from a re-analysis of the deposited data

How the results depend on the processing

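Against WT the count of nuclear genes called was 3309 and lay between 3179 (scaling by library totals) and 3678 (only these groups fitted), and between 2502 and 2726 with 1 library left out. Against Sdc1_mut, where 1 gene was called, only these groups fitted gave 17, limma 2 and DESeq2 3, and leaving out 1 library gave 1 to 2. Against Sdc1_KO, where 1582 were called, only these groups fitted gave 482, and leaving out 1 library gave 788 to 2215. The cause of these shifts was not tested. Same-numbered libraries deviated together only weakly, as the correlation of replicate differences between groups ran from -0.131 to 0.156. These values cannot show whether libraries of the same number were grown or prepared together. A fit with the replicate block called 3352, 1 and 1648 genes against WT, Sdc1_mut and Sdc1_KO, and 1663 against Sdc1_KO with the Dpy30_KO numbers crossed, an alternative added after the data were seen. With the block no retrograde gene was higher (1 without it) and 2 pheromone genes were (1 without it). Of 136 named genes called against WT, 9 lost the call with some library left out and 1, PDC1, under another alternative, and none reversed. Against Sdc1_KO the 10 named genes kept their calls under each alternative and without each library. Of 1584 counts over gene lists, 1485 stayed within 1.5 times the reported count. With 2 libraries a group and fewer fragments in Dpy30_KO than in WT, small changes of low genes were not detectable.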

Other observations

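Within amino acid synthesis, genes moved in both directions in Dpy30_KO against WT. LYS9, saccharopine dehydrogenase, stood at 815 and 973 CPM in WT and at 2168 and 2136 CPM in Dpy30_KO (1.27 ± 0.15, edgeR adjusted p = 2.5e-05). LYS12, homoisocitrate dehydrogenase, rose by 1.07 ± 0.13. ARG8, of arginine synthesis, fell by 1.08 ± 0.15. Over the list of arginine, lysine, histidine and aromatic synthesis, 8 of 38 genes were higher (5 without WT replicate 1) and 13 lower. In methionine and sulfur assimilation, 4 of 27 were higher (2 without Dpy30_KO replicate 2) and 7 lower (4 without WT replicate 1 or Dpy30_KO replicate 1, and 13 when only these strains were fitted), with MET6, methionine synthase, falling by 1.13 ± 0.20.

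Among metal and phosphate genes, ZRT1, the high affinity zinc transporter, stood at 40.1 and 38.4 CPM in WT and at 121 and 110 CPM in Dpy30_KO (1.56 ± 0.17, edgeR adjusted p = 1.2e-05). IZH1 and IZH2 of the same list fell by 1.42 ± 0.20 and 1.17 ± 0.16, and the list had 3 of 13 genes higher and 3 lower. PHO89, a sodium and phosphate cotransporter, rose by 1.65 ± 0.15. THI4, of thiazole synthesis, rose by 2.56 ± 0.29, and 11 of 23 genes of thiamine and vitamin B6 were higher and 1 lower, several of them near copies of each other. In peroxisomal beta-oxidation 8 of 19 genes were higher and 4 lower, with POX1, acyl-CoA oxidase, rising by 1.55 ± 0.20. In ergosterol synthesis 11 of 24 were higher and 4 lower, from ERG13 at 0.90 ± 0.16 to ERG5 at -1.13 ± 0.22. RPR1, the RNA of nuclear RNase P, stood at 131 and 135 CPM in WT and at 55 and 67 CPM in Dpy30_KO (-1.12 ± 0.12, edgeR adjusted p = 9.5e-06).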
